A study of Homo sapiens with 24 samples.

Results

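The genes described here encode 10 enzymes that make the amino acids asparagine, serine and proline and run the mitochondrial arm of one-carbon metabolism: ASNS, PHGDH, PSAT1, PSPH, SHMT2, MTHFD2, MTHFD1L, ALDH1L2, PYCR1 and ALDH18A1. They were taken by symbol from the 48162 genes measured in each library; all 10 were found and each symbol stood for a single gene. RNA was sequenced from 24 libraries, 3 in each of 8 groups, to ask how extracellular vesicles (EV) from pancreatic cancer cells affect pancreas cells that are labelled normal. The recipient lines were hTERT-HPNE (HPNE), pancreas cells made immortal by a telomerase transgene, and HPDE-H6c7 (HPDE), immortalised duct cells of the pancreas. In each line the groups were untreated cells in fresh serum-free medium, cells given the residual medium that remained after vesicle isolation, cells given vesicles from PANC-1, a pancreatic carcinoma line, and cells given vesicles from PPCL-68, a further pancreas cancer source. Vesicles were dosed at 1e10 per well, and every group was collected after 24 h. Each recipient is a single immortalised line, and each vesicle type comes from a single source. Within a line, the vesicle comparisons share their residual-medium and untreated libraries.

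ASNS makes asparagine from aspartate, with glutamine as the nitrogen donor. PHGDH, PSAT1 and PSPH act in sequence to turn the glycolytic intermediate phosphoglycerate into serine. SHMT2 splits serine into glycine and a one-carbon unit in the mitochondrion, MTHFD2 and MTHFD1L carry that unit on to formate, and ALDH1L2 releases it as carbon dioxide. ALDH18A1 performs the first steps from glutamate towards proline, and PYCR1 performs the last. ASNS and several of the others are known targets of ATF4, the transcription factor that is translated when amino acids run short or unfolded protein accumulates in the endoplasmic reticulum. Factors of the C/EBP and ATF families bind a short composite sequence, the C/EBP-ATF response element, in many of these target genes.

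Promoter sequence is shown for ASNS because it rose more than any other member in all 4 comparisons of vesicles with residual medium. MTHFD1L is shown as the other gene with a match to the response element, and ALDH18A1 because it fell in HPNE. The sequences are from RefSeq (GRCh38.p14) and run 5′ to 3′ on the strand of the gene. Capitals mark a match to TGATGNAAN, which was searched on both strands.
ASNS, chr7:97872409-97872658, minus strand, the 250 bases before the start: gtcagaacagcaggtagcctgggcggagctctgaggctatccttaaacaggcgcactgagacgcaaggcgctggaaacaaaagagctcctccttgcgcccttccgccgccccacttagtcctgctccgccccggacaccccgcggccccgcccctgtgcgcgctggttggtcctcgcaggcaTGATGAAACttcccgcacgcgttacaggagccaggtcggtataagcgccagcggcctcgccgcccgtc
MTHFD1L, chr6:150866347-150866376, plus strand, 30 bases around the match: ccgccggctcTGATGCAATcgcgccgggcg
ALDH18A1, chr10:95656712-95656961, minus strand, the 250 bases before the start, without a match: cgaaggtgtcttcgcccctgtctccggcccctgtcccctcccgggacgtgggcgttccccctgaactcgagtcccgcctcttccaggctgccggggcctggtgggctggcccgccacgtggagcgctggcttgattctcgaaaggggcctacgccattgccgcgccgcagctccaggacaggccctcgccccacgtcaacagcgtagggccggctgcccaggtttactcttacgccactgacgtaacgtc
The match in ASNS, TGATGAAAC, lay 68 bases before the start used here. GTTACA, known in this gene as nutrient-sensing element 2, lay 48 bases before that start. It was also searched on both strands and does not overlap the first motif. Of the 2 windows listed for ASNS, the other held neither motif. The match in MTHFD1L, TGATGCAAT, lay 129 bases before the start of the transcript used here and was in 3 of the 4 windows listed for that gene. Promoter windows of 300 bases, 250 before and 50 after a start, were found for 6 of the 10 genes, and not for PSPH, SHMT2, ALDH1L2 and PYCR1. PHGDH, PSAT1, MTHFD2 and ALDH18A1 held neither motif in their windows. TGATGNAAN occurred in 3.61% of all 35116 windows and GTTACA in 6.66%. Counted by gene, with a match in any window, the shares were 4.45% and 8.07% of 27305 genes. A match describes the letters in a window and does not show that a factor binds there.

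Reads assigned to genes ranged from 29874928 to 46490312 per HPNE library and from 29209142 to 42206773 per HPDE library. The 10 members had between 796 and 21076 reads in each HPNE library. In HPDE, 9 of them had between 1173 and 16650, and ALDH1L2 had 11 to 43. Duct character was plain in HPDE, where KRT19, EPCAM and CDH1, markers of duct epithelium, were at 317 to 1140, 148 to 192 and 44.9 to 56.6 FPKM (reads scaled to gene length and library total). HPNE did not show it: the same genes were at 0 to 0.905, 0 to 0.162 and 0.00537 to 0.112 FPKM, while the matrix gene FN1 was at 5747 to 8130 FPKM. Markers of acinar, endocrine and blood cells were at or near 0 in both lines. In each HPNE group 1 library lay at least 2 times farther from the other libraries of its group than those lay from each other: replicate 3 in both control groups and replicate 1 in both vesicle groups. The ratio was 2.03 to 3.20 in HPNE and 1.08 to 1.25 in HPDE. In bulk RNA, fewer cells of a kind and less RNA per cell cannot be told apart.

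Vesicles from either source were compared with residual medium first, since that medium is the negative control for whatever else the vesicle preparation carries. In HPDE, 8 of the 9 members tested rose with PANC-1 EV and 8 of 9 with PPCL-68 EV, and ALDH18A1 did not pass the test with either. In HPNE, 7 of 10 rose and 1 fell with PANC-1 EV, and 6 rose and 1 fell with PPCL-68 EV; the one that fell was ALDH18A1 both times. The 8 HPNE calls with PANC-1 EV were fewer in other fits: 5 without the filter on low values or without replicate 2 of PANC-1 EV, 4 without replicate 3 of PANC-1 EV or without replicate 1 or 2 of residual medium, and 3 when the 6 libraries compared were fitted alone. Calls over all genes also became fewer in that last fit, 1417 of 11329 against 2784 of 11503 in the fit of all 12 HPNE libraries. The shares of all genes in the other fits are not given here, so these counts do not set the members apart. Tests were by limma on log2(FPKM + 1), adjusted over all genes tested, with a threshold of 0.05. Over all genes, 63.3% and 67.7% passed in HPDE with PANC-1 and PPCL-68 EV, 28.2% and 31.3% as higher and 35.1% and 36.4% as lower. In HPNE 24.2% and 39.9% passed, 13.9% and 20.3% as higher, 10.3% and 19.7% as lower; with size factors in place of the FPKM totals, the split with PANC-1 EV turned to 11.7% higher and 16.1% lower. The median log2 difference of the members was 0.76 and 0.86 in HPNE, against 0.02 and 0.00 over all genes, and 0.73 and 0.89 in HPDE, against -0.04 and -0.03.

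**Figure D1:**
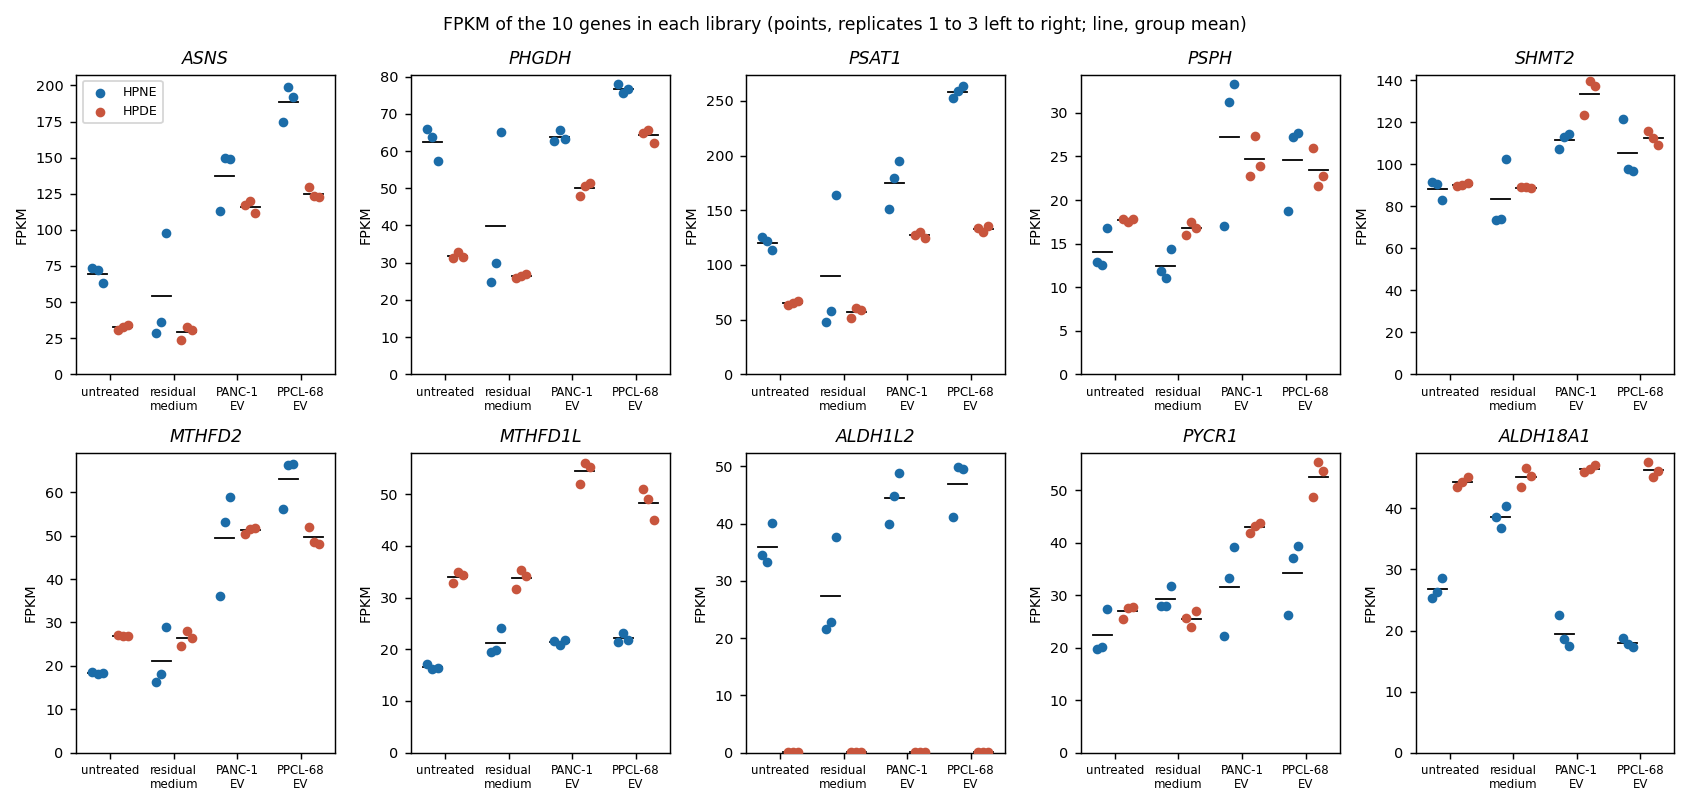
FPKM of each of the 10 genes (one panel each, linear axis from 0) in the 24 libraries by treatment group; points are libraries, with replicates 1 to 3 left to right, and black lines are group means. ASNS after vesicles lies at 111 to 199 FPKM in both lines, ALDH18A1 in HPNE at 17.4 to 22.5, and ALDH1L2 in HPDE at 0.0483 to 0.170 FPKM throughout.

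Asparagine synthesis gave the largest change. ASNS (ENSG00000070669, hg19 chr7:97481430-97501854) was at 24.1, 32.9 and 31.0 FPKM in the 3 HPDE libraries with residual medium and at 30.7, 32.9 and 34.3 in untreated HPDE. With PANC-1 EV it was at 117, 119.8 and 111 FPKM, and with PPCL-68 EV at 129, 123 and 122. Every HPDE vesicle library was therefore above every control library, by 3.96-fold (PANC-1) and 4.26-fold (PPCL-68) in group means over residual medium. On the log2(FPKM + 1) scale the differences were 1.96 ± 0.08 (SE, n = 3 per group, limma adjusted p = 1.69e-10) and 2.07 ± 0.08 (adjusted p = 6.1e-11). They ranked 21 and 23 from the top of the 12223 genes tested.

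In HPNE, ASNS was at 28.8, 35.8 and 97.7 FPKM with residual medium, at 113, 149.7 and 149 with PANC-1 EV, and at 175, 199 and 192 with PPCL-68 EV. The vesicle libraries again lay above all residual-medium libraries, but replicate 3 of residual medium was more than 2 times as high as either other replicate. The differences were 1.52 ± 0.34 (adjusted p = 0.00957) and 1.99 ± 0.34 (adjusted p = 0.00124), ranks 48 and 25 of 11503. Without that replicate they were 2.05 and 2.51. The PANC-1 EV call was lost in a fit of the 6 libraries compared alone (adjusted p = 0.0593). Untreated HPNE held 73.7, 71.9 and 63.4 FPKM, so ASNS was 2.70-fold higher with PPCL-68 EV (1.42 ± 0.34, adjusted p = 0.00603), and with PANC-1 EV it was 0.96 ± 0.34 higher without passing (adjusted p = 0.063).

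**Figure D2:**
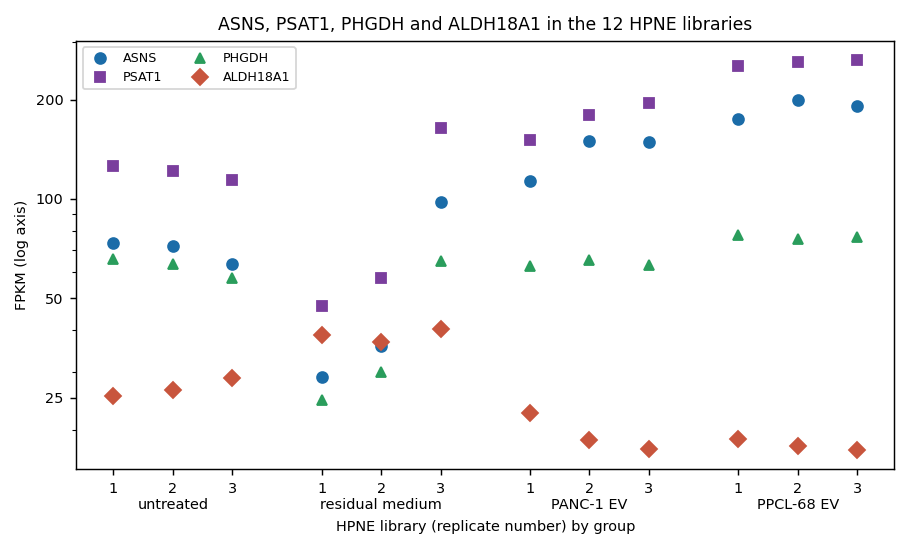
ASNS, PSAT1, PHGDH and ALDH18A1 in each of the 12 HPNE libraries, in FPKM on a log axis, by group and replicate number. Replicate 3 of residual medium holds 97.7 FPKM of ASNS and 164 of PSAT1, against 28.8 and 35.8 and against 47.5 and 57.6 in the other replicates, while ALDH18A1 at 40.5 FPKM stays beside its 38.6 and 36.7.

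Against residual medium, the 3 enzymes of serine synthesis rose in both lines. PHGDH (ENSG00000092621), the first of them, was at 25.9, 26.4 and 26.8 FPKM with residual medium in HPDE, at 48.0, 50.6 and 51.3 with PANC-1 EV and at 64.8, 65.7 and 62.2 with PPCL-68 EV. PSAT1 (ENSG00000135069), the aminotransferase of the pathway, was at 51.4, 60.6 and 58.8 FPKM, then 127, 131 and 125, then 134, 130.2 and 135 in the same HPDE groups. PSPH (ENSG00000146733), the phosphatase that completes serine, was at 16.0, 17.4 and 16.8 FPKM, then 22.8, 27.4 and 23.9, then 26.0, 21.6 and 22.7. None of the vesicle libraries overlapped residual medium for any of these. The log2 differences with PANC-1 and PPCL-68 EV were 0.90 ± 0.04 and 1.25 ± 0.04 for PHGDH, 1.15 ± 0.05 and 1.22 ± 0.05 for PSAT1, and 0.53 ± 0.07 and 0.46 ± 0.07 for PSPH, with adjusted p no larger than 4.1e-05 by limma.

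In HPNE the residual-medium libraries differed widely in the first 2 of these enzymes. PHGDH was at 24.7, 29.9 and 65.0 FPKM with residual medium, at 62.6, 65.5 and 63.2 with PANC-1 EV and at 77.9, 75.5 and 76.6 with PPCL-68 EV. PSAT1 was at 47.5, 57.6 and 164 FPKM, then 151, 179 and 195, then 252, 259 and 263. For both genes replicate 3 of residual medium overlapped the PANC-1 EV libraries and lay below the PPCL-68 EV libraries. PHGDH differed by 0.79 ± 0.26 with PANC-1 EV (adjusted p = 0.0458) and by 1.05 ± 0.26 with PPCL-68 EV (adjusted p = 0.00848), and PSAT1 by 1.17 ± 0.34 (adjusted p = 0.0304) and 1.74 ± 0.34 (adjusted p = 0.00275). Without replicate 3 of residual medium the PHGDH values were 1.20 and 1.46 and the PSAT1 values 1.72 and 2.28. The PHGDH call with PANC-1 EV was lost in 10 of its alternatives, among them size factors (adjusted p = 0.0666), the replicate block (adjusted p = 0.0581) and limma voom on recovered reads (adjusted p = 0.0514), and the PSAT1 call with PANC-1 EV in 6.

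PSPH in HPNE showed another order of libraries. It was at 11.9, 11.0 and 14.4 FPKM with residual medium, at 17.0, 31.3 and 33.3 with PANC-1 EV and at 18.8, 27.3 and 27.7 with PPCL-68 EV. Here the low library of each vesicle group was replicate 1, the one that lay apart, and it was still above all residual-medium libraries. The differences were 1.02 ± 0.23 (adjusted p = 0.011) and 0.92 ± 0.23 (adjusted p = 0.0105). Against untreated HPNE, PSPH passed with both sources (0.86 and 0.76) and PHGDH with neither (0.03 and 0.30). PSAT1 passed there with PPCL-68 EV (1.10) and not with PANC-1 EV (0.53). Residual medium was itself below untreated HPNE for PHGDH (-0.76).

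In the mitochondrial one-carbon arm, MTHFD2 (ENSG00000065911), the dehydrogenase and cyclohydrolase of the pathway, rose most. With residual medium it was at 16.2, 18.0 and 28.9 FPKM in HPNE, with PANC-1 EV at 36.2, 53.1 and 58.8, and with PPCL-68 EV at 56.1, 66.4 and 66.6. In HPDE it was at 24.5, 28.0 and 26.5 FPKM, then 50.4, 51.5 and 51.7, then 52.0, 48.6 and 48.2. No vesicle library overlapped its residual-medium group in either line. The log2 differences were 1.21 ± 0.21 (adjusted p = 0.00283) and 1.58 ± 0.21 (adjusted p = 0.000291) in HPNE, and 0.94 ± 0.05 (adjusted p = 1.01e-09) and 0.89 ± 0.05 (adjusted p = 1.04e-09) in HPDE. MTHFD2 was also among the members that passed against untreated cells in both lines with both sources.

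SHMT2 (ENSG00000182199), which feeds serine into the arm, was the most abundant of the mitochondrial enzymes per length. In both lines SHMT2 differed from residual medium by less than MTHFD2 did. It was at 89.0, 89.1 and 88.6 FPKM with residual medium in HPDE, at 123, 139 and 137 with PANC-1 EV and at 116, 112 and 109 with PPCL-68 EV, differences of 0.58 ± 0.05 (adjusted p = 8.95e-08) and 0.34 ± 0.05 (adjusted p = 1.45e-05). In HPNE it was at 73.6, 74.1 and 102 FPKM, then 107, 113 and 114, then 121, 97.6 and 96.8. The PPCL-68 EV libraries overlapped residual medium there and the difference of 0.34 ± 0.13 did not pass (adjusted p = 0.0595; 0.50 and adjusted p = 0.00294 without replicate 3 of residual medium). The PANC-1 EV difference of 0.43 ± 0.13 passed (adjusted p = 0.0369) but was lost in 9 alternatives, size factors among them (adjusted p = 0.0626). SHMT2 overlaps NDUFA4L2 on the other strand, whose reads averaged 3.20% of those of SHMT2; the library kit did not record strand.

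MTHFD1L (ENSG00000120254), which makes formate, separated the lines when vesicles were set against residual medium. In HPDE it was at 31.8, 35.3 and 34.1 FPKM with residual medium, at 52.0, 56.0 and 55.4 with PANC-1 EV and at 50.9, 49.0 and 45.0 with PPCL-68 EV, so that both vesicle groups lay wholly above residual medium (0.68 ± 0.05, adjusted p = 8.89e-08, and 0.51 ± 0.05, adjusted p = 1.1e-06). In HPNE it was at 19.5, 19.9 and 24.2 FPKM, then 21.7, 20.9 and 21.8, then 21.3, 23.1 and 21.9. These groups overlapped, with differences of 0.02 ± 0.08 (adjusted p = 0.861) and 0.06 ± 0.08 (adjusted p = 0.579). The difference between the lines was itself tested, as the HPDE effect minus the HPNE effect in a fit of all 24 libraries, and passed for both sources: 0.65 ± 0.10 (adjusted p = 9.92e-05) and 0.44 ± 0.10 (adjusted p = 0.00235). In untreated HPNE it was at 17.1, 16.2 and 16.3 FPKM. Against these libraries MTHFD1L was higher with PANC-1 EV (0.35 ± 0.08, adjusted p = 0.0137), with PPCL-68 EV (0.40 ± 0.08, adjusted p = 0.00329) and with residual medium (0.33 ± 0.08, adjusted p = 0.0097). Against untreated HPDE it was higher by 0.66 with PANC-1 EV and by 0.49 with PPCL-68 EV. A line difference of vesicles against untreated cells was not tested.

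ALDH1L2 (ENSG00000136010), the formyl-folate dehydrogenase of mitochondria, was present in HPNE and nearly absent from HPDE. It ranged from 21.5 to 49.9 FPKM over the 12 HPNE libraries and from 0.0483 to 0.170 FPKM over the 12 HPDE libraries, where it fell under the mean of 1 FPKM required for a test. In HPNE it was at 21.5, 22.8 and 37.6 FPKM with residual medium, at 39.9, 44.8 and 48.8 with PANC-1 EV and at 41.2, 49.9 and 49.5 with PPCL-68 EV. The vesicle groups lay above residual medium, by 0.72 ± 0.18 (adjusted p = 0.0157) and 0.80 ± 0.18 (adjusted p = 0.00573), and both fell short of the threshold against untreated cells at 34.5, 33.3 and 40.1 FPKM (0.30, adjusted p = 0.252, and 0.37, adjusted p = 0.117). The PANC-1 EV call against residual medium was lost when only the 6 libraries compared were fitted (adjusted p = 0.067). ALDH1L2 overlaps C12orf45 on the other strand, whose reads averaged 6.28% of those of ALDH1L2 over all libraries. That share was not worked out by line. It does not describe HPDE, where ALDH1L2 had only 11 to 43 reads per library.

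The enzymes of proline synthesis parted. PYCR1 (ENSG00000183010), which completes proline, was at 25.6, 23.9 and 26.9 FPKM with residual medium in HPDE, at 41.9, 43.2 and 43.8 with PANC-1 EV and at 48.7, 55.4 and 53.7 with PPCL-68 EV, wholly above the control both times (0.73 ± 0.06, adjusted p = 6.17e-08, and 1.02 ± 0.06, adjusted p = 1.15e-09). In HPNE it was at 27.9, 27.9 and 31.8 FPKM, then 22.2, 33.3 and 39.3, then 26.3, 37.1 and 39.4. The HPNE groups overlapped and neither difference passed (0.07, adjusted p = 0.815, and 0.21, adjusted p = 0.46). The HPDE effect exceeded the HPNE effect by 0.66 ± 0.23 (adjusted p = 0.0441) and 0.81 ± 0.23 (adjusted p = 0.0123). Replicate 1 of each HPNE vesicle group, the library that lay apart, was the lowest of its group for PYCR1, and without the 4 libraries that lay apart the HPNE differences were 0.36 (adjusted p = 0.00164) and 0.44 (adjusted p = 0.000369). That setting was chosen after the data had been seen and removes the most distant library of each group, so it understates the spread.

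ALDH18A1 (ENSG00000059573) was the only member that fell with vesicles. In HPNE it was at 38.6, 36.7 and 40.5 FPKM with residual medium and at 25.4, 26.3 and 28.7 in untreated cells. With PANC-1 EV it was at 22.5, 18.6 and 17.5 FPKM, and with PPCL-68 EV at 18.7, 17.8 and 17.4. Both vesicle groups lay below both control groups in every library, at 0.505 and 0.465 times the residual-medium mean and 0.728 and 0.671 times the untreated mean. The differences were -0.96 ± 0.09 (adjusted p = 0.000204) and -1.06 ± 0.09 (adjusted p = 4.24e-05) against residual medium, and -0.44 ± 0.09 (adjusted p = 0.00876) and -0.55 ± 0.09 (adjusted p = 0.000989) against untreated cells. Residual medium alone stood above untreated, by 0.51 ± 0.09 (adjusted p = 0.00212), so the residual-medium reference makes the fall larger than the untreated one does. In HPDE the gene stayed between 43.5 and 47.6 FPKM in all 12 libraries, with differences of 0.04 (adjusted p = 0.378) and 0.03 (adjusted p = 0.462) from residual medium. The line difference was 1.00 ± 0.10 (adjusted p = 1.07e-06) for PANC-1 EV and 1.10 ± 0.10 (adjusted p = 1.61e-07) for PPCL-68 EV.

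**Figure D3:**
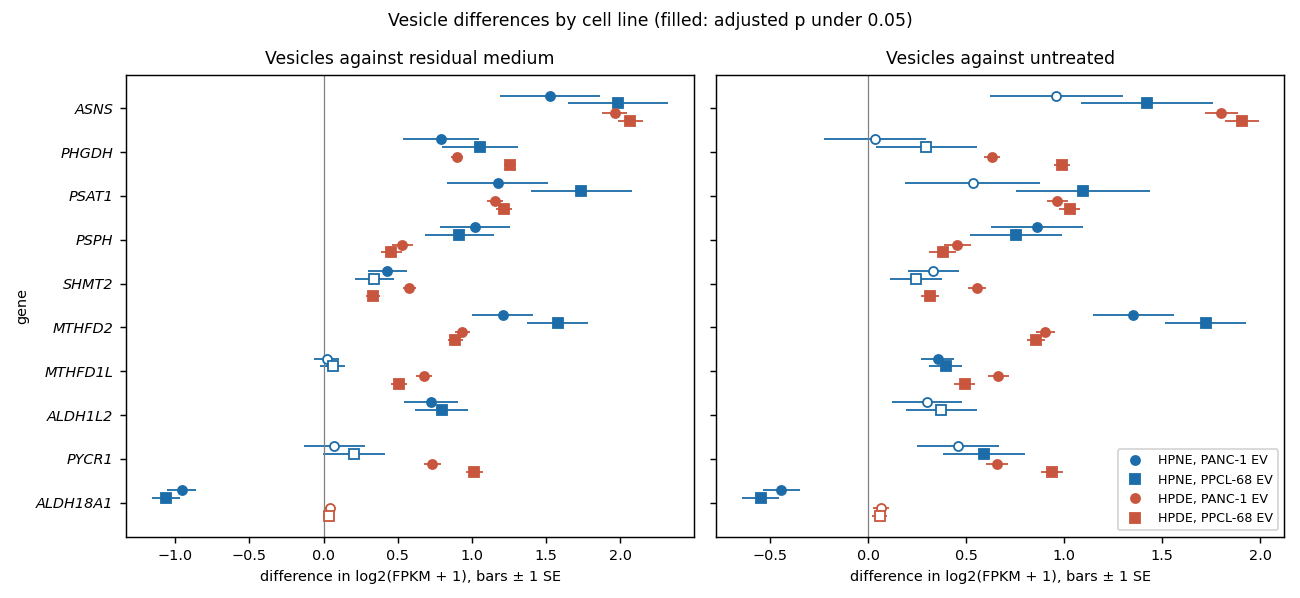
Difference in log2(FPKM + 1) of each gene between vesicle-treated and control libraries, against residual medium (left) and untreated cells (right), with bars of 1 SE; colour is the line, shape the vesicle source, and filled symbols have an adjusted p under 0.05. ASNS has the largest differences against residual medium in every series (1.52 to 2.07), and ALDH18A1 lies below 0 in HPNE (-0.96 and -1.06) and near 0 in HPDE.

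The line differences were counted over the 9 members tested in both lines, which leaves out ALDH1L2. For PANC-1 EV against residual medium 3 of the 9 passed, with 19.4% of all genes tested in both lines passing; for PPCL-68 EV 4 passed, with 23.7%. MTHFD2 passed for PPCL-68 EV with the larger effect in HPNE (HPDE minus HPNE -0.69 ± 0.22, adjusted p = 0.0279), while the PANC-1 EV value of -0.27 ± 0.22 did not (adjusted p = 0.401). ASNS did not pass for either source, with 0.44 ± 0.37 and 0.08 ± 0.37. For PHGDH, PSAT1, PSPH and SHMT2 the values ranged from -0.52 to 0.20 and none passed. Without replicate 3 of HPNE residual medium 5 members passed for PANC-1 EV. The share of all genes in that fit is not given here, so this count does not set the members apart. Without the 4 HPNE libraries that lay apart 7 members passed for each source, but 46.9% (PANC-1) and 45.3% (PPCL-68) of all genes tested in both lines passed there too.

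Untreated cells gave the second reference. In HPDE, 8 of 9 members were again higher with PANC-1 EV and 8 of 9 with PPCL-68 EV (all genes: 60.6% and 66.3%, with 26.3% and 30.1% higher), from 0.31 for SHMT2 with PPCL-68 EV to 1.91 for ASNS with PPCL-68 EV. In HPNE the count was smaller: PSPH, MTHFD2 and MTHFD1L were higher and ALDH18A1 lower with PANC-1 EV, against 21.1% of all genes passing (9.61% higher, 11.5% lower; 13.1% and 9.38% with size factors). With PPCL-68 EV ASNS, PSAT1, PSPH, MTHFD2, MTHFD1L and PYCR1 were higher and ALDH18A1 lower, against 42.5% (18.7% higher, 23.8% lower; 24.6% and 20.0% with size factors). Leaving out replicate 2 of untreated or replicate 3 of PANC-1 EV gave 2 members with PANC-1 EV, and leaving out replicate 1 or 2 of untreated or replicate 2 or 3 of PPCL-68 EV gave 4 with PPCL-68 EV. The shares of all genes in these fits are not given here, so these counts do not set the members apart. PHGDH in HPNE stood at 65.8, 63.7 and 57.4 FPKM untreated, overlapped its PANC-1 EV libraries, and differed from them by 0.03 ± 0.26 (adjusted p = 0.935).

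Residual medium against untreated cells showed a share of members near that of all genes in HPDE and under it in HPNE, so the counts say nothing particular of the members. In HPDE, PHGDH was lower than in untreated cells (31.3, 32.8 and 31.4 FPKM untreated; -0.26 ± 0.04, adjusted p = 0.000557), as was PSAT1 (63.0, 65.0 and 66.7 FPKM untreated; -0.19 ± 0.05, adjusted p = 0.0241), which is 2 of 9 members against 20.0% of all genes (10.1% lower). Only 1 of these 2 calls was left without replicate 2 or 3 of untreated or replicate 1 of residual medium. In HPNE, PHGDH was lower (-0.76 ± 0.26, adjusted p = 0.0348) and MTHFD1L and ALDH18A1 higher, 3 of 10 members against 43.9% of all genes. ASNS (-0.56 ± 0.34, adjusted p = 0.19) and PSAT1 (-0.64 ± 0.34, adjusted p = 0.146) did not pass in HPNE. These values turn on replicate 3 of residual medium: without it ASNS was at -1.09 (adjusted p = 0.000223), PSAT1 at -1.19 (adjusted p = 6.41e-05), PHGDH at -1.17 (adjusted p = 1.88e-05) and ALDH1L2 at -0.67 (adjusted p = 0.00108), and 6 members passed. The line difference in this contrast passed for MTHFD1L (-0.35 ± 0.10) and ALDH18A1 (-0.49 ± 0.10). That is 2 of 9 members, against 38.2% of all genes tested in both lines. Without replicate 3 of HPNE residual medium 5 members passed. The share of all genes without that replicate is not given here. Neither this count nor the 6 above therefore sets the members apart.

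The vesicle sources were also set against each other. In HPDE, PHGDH (-0.36 ± 0.04, adjusted p = 7.64e-06) and PYCR1 (-0.28 ± 0.06, adjusted p = 0.000797) were lower with PANC-1 than with PPCL-68 EV, and SHMT2 (0.24 ± 0.05, adjusted p = 0.000566) and MTHFD1L (0.17 ± 0.05, adjusted p = 0.0166) were higher, 4 of 9 members against 50.1% of all genes. ASNS differed by -0.11 ± 0.08 and did not pass (adjusted p = 0.32). In HPNE 0 of 10 members passed by limma, against 5.47% of all genes; 0 had an unadjusted p under 0.05, and limma voom on recovered reads called 0. The 3 PANC-1 EV libraries lay below the 3 PPCL-68 EV libraries for ASNS, PHGDH and PSAT1 (-0.46 ± 0.34, -0.26 ± 0.26 and -0.57 ± 0.34), 3 of 10 members with groups that do not overlap, against 30.3% of all genes (15.2% as lower). Without the 4 libraries that lay apart 6 members passed there, against 36.5% of all genes.

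Before treatment 6 of the 9 members tested in both lines differed between them, against 81.7% of all such genes, so the count does not set the members apart. In untreated HPDE relative to untreated HPNE, ASNS was lower (0.468 times the HPNE mean, -1.07 ± 0.26), as were PHGDH (0.511 times, -0.94 ± 0.20) and PSAT1 (0.539 times, -0.88 ± 0.26). ALDH1L2, with group means of 35.9 FPKM in HPNE and 0.0769 in HPDE, was not counted. MTHFD1L (1.00 ± 0.07), ALDH18A1 (0.71 ± 0.07) and MTHFD2 (0.53 ± 0.16) were higher, and PSPH, SHMT2 and PYCR1 did not pass. These differences depended on the scaling: size factors moved the median difference over all genes from 0.38 to 0.07, and SHMT2 from 0.03 to -0.33 (adjusted p = 0.0101). The 10 most abundant genes took 14.5 to 18.3% of reads in HPNE and 4.33 to 5.21% in HPDE, and the part of this in that shift was not tested. After vesicles, the highest levels per length in HPDE were those of SHMT2, PSAT1 and ASNS, with group means between 112 and 133 FPKM, then PHGDH, MTHFD2, MTHFD1L, PYCR1 and ALDH18A1 between 43.0 and 64.3, then PSPH at 24.7 ± 2.37 (PANC-1) and 23.4 ± 2.27 FPKM (PPCL-68; SD, n = 3). In HPNE with PPCL-68 EV, PSAT1 led at 258 ± 5.51 FPKM, ASNS followed at 188 ± 12.5 and SHMT2 at 105 ± 14, and ALDH18A1 was last at 18.0 ± 0.7.

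The other listed genes of these pathways were counted in the same comparisons. Over all genes, 28.2% rose and 35.1% fell with PANC-1 EV in HPDE and 31.3% and 36.4% with PPCL-68 EV; in HPNE it was 13.9% and 10.3%, then 20.3% and 19.7%. With lists this short, a count near those shares is no result about the list. In the cytosolic folate arm, which uses one-carbon units for nucleotides and holds SHMT1, MTHFD1 and TYMS, 0 of 8 genes rose and 3 fell with PANC-1 EV in HPDE against residual medium, and 1 rose and 5 fell with PPCL-68 EV. In HPNE 1 of 7 rose and 1 fell with PANC-1 EV, and 1 rose and 4 fell with PPCL-68 EV. SHMT1, the cytosolic counterpart of SHMT2, fell in all 4 comparisons, with differences of -0.94 and -1.36 in HPNE and of -0.24 and -0.76 in HPDE (PANC-1 EV, then PPCL-68 EV). TYMS, which makes thymidylate, fell with PPCL-68 EV in both lines (-1.35 in HPNE and -1.49 in HPDE) and with PANC-1 EV in HPDE (-0.51), and its PANC-1 EV value in HPNE did not pass (-0.85, adjusted p = 0.0831). GGH, which trims folate polyglutamates, fell in the same 3 comparisons (-1.20 in HPNE with PPCL-68 EV, -0.76 and -0.61 in HPDE), with -0.75 in the fourth (adjusted p = 0.0555). MTHFD1, the cytosolic counterpart of MTHFD2 and MTHFD1L, fell in HPDE with PPCL-68 EV (-0.75), and its other 3 values (-0.48, -0.62 and -0.06) did not pass. Against untreated HPNE, TYMS (0.58 and 0.07) and GGH (0.07 and -0.38) did not pass with either source, and SHMT1 passed with PPCL-68 EV (-0.72) and not with PANC-1 EV (-0.30). HPNE with residual medium was itself higher than untreated HPNE in 4 of 7 genes of this arm and lower in 1, against 18.7% and 25.2% of all genes (28.9% and 18.1% with size factors); TYMS was higher by 1.42, GGH by 0.82 and SHMT1 by 0.64.

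Other genes of serine and mitochondrial folate handling moved in both directions. SFXN1, which carries serine into mitochondria, also fell in each of the 4 (-0.75 and -0.74 in HPNE, -0.32 and -0.52 in HPDE). In HPNE residual medium was above untreated cells (0.54), and against untreated HPNE it did not pass (-0.21 and -0.20). Of 8 serine and glycine genes outside the members, SHMT1 counted again among them, 0 rose and 2 fell with PANC-1 EV in HPNE, 1 and 2 with PPCL-68 EV, and in HPDE 1 and 4, then 3 and 3. Of 5 further mitochondrial folate genes in HPNE, 0 passed with PANC-1 EV, and 2 rose and 1 fell with PPCL-68 EV; of 3 in HPDE, 0 rose and 1 fell with each source. MTHFD2L, the near relative of MTHFD2, passed in HPNE with PPCL-68 EV (0.52), and its values were 0.16, 0.14 and 0.00 elsewhere. Of 3 further proline genes, 0 rose in either line; in each, 1 fell with PANC-1 EV, while PPCL-68 EV lowered 2. PYCRL, a relative of PYCR1, fell in HPNE (-0.68 and -0.82) and in HPDE with PPCL-68 EV (-0.57); against untreated HPNE it did not pass (-0.13 and -0.27), and residual medium was above untreated there (0.55). ALDH1L1, the cytosolic counterpart of ALDH1L2, was below the level for testing in both lines.

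CBS and CTH of transsulfuration and the aminotransferases GOT1 and GPT2 rose in all 4 comparisons with residual medium. Of 8 genes of the methionine cycle and transsulfuration, 3 rose and 0 fell with PANC-1 EV in HPNE and 4 and 0 with PPCL-68 EV; in HPDE it was 4 and 2, then 4 and 3. CBS and CTH turn homocysteine and serine into cysteine; CBS rose by 1.09 and 1.41 in HPNE and 1.38 and 1.59 in HPDE, CTH by 0.50 and 0.83 and then 1.21 and 1.30. Of the listed genes around aspartate and glutamate other than ASNS, 2 of 7 rose and 0 fell with each source in HPNE, and of 8 in HPDE 5 rose and 2 fell, then 3 and 4. GOT1, an aminotransferase of aspartate, rose by 1.32 and 1.68 in HPNE and 0.90 and 0.97 in HPDE. GPT2, the mitochondrial alanine aminotransferase, rose by 0.63 and 0.78, then 0.90 and 0.96. Other aminotransferases, named after their values were seen, did not rise: in HPDE GOT2 fell by 0.19 and 0.45 and OAT by 0.46 and 0.57, and OAT also fell in HPNE with PPCL-68 EV (-0.48). Purine synthesis uses glycine and formate at some of its steps. Of 10 genes of that pathway, 1 rose and 3 fell with PANC-1 EV and 2 rose and 5 fell with PPCL-68 EV in HPNE. In HPDE 4 rose and 3 fell, then 0 rose and 6 fell. IMPDH1, of guanine nucleotide synthesis, fell in all 4 but did not pass against untreated HPNE (-0.18 and -0.16), and MTRR, which reactivates methionine synthase, rose in all 4. Of 7 listed regulators, 5 rose and 0 fell with PANC-1 EV in HPNE and 5 and 1 with PPCL-68 EV. In HPDE it was 6 and 1 with each source. ATF4, DDIT3, CEBPB, TRIB3 and MYC rose in all 4 comparisons. EIF2AK3 rose only in HPDE, with both sources. EIF2AK4 fell in HPDE with both sources and in HPNE with PPCL-68 EV. ATF4 rose by 0.63 and 0.79 in HPNE and 0.48 and 0.56 in HPDE. DDIT3, a stress-induced transcription factor, rose by 2.15 and 2.12, then 2.67 and 2.24. In HPNE the PANC-1 EV calls of ATF4, CEBPB, CTH, GPT2, IMPDH1 and MTRR were lost without the filter on low values, as was that of IMPDH1 with PPCL-68 EV. Against untreated HPNE, ATF4 did not pass with either source (0.05 and 0.21), nor CTH (0.35) and CEBPB (0.30) with PANC-1 EV. Residual medium was below untreated HPNE for ATF4 (-0.58, adjusted p = 0.0392), DDIT3 (-0.93) and TRIB3 (-1.27).

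**Figure D4:**
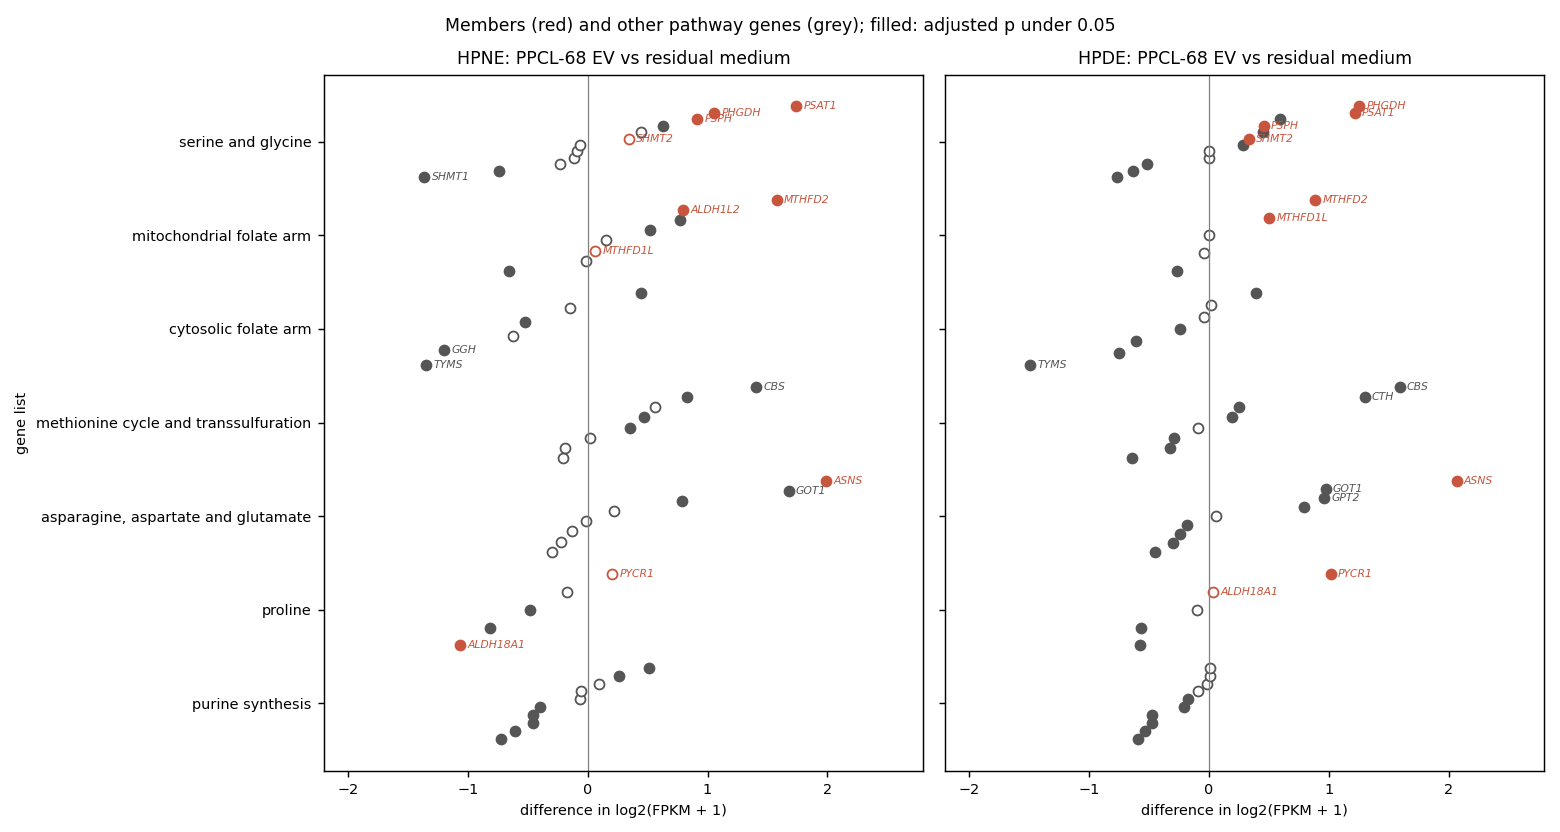
Differences in log2(FPKM + 1) between PPCL-68 EV and residual medium in HPNE (left) and HPDE (right) for the members (red) and the other listed genes of each pathway (grey); filled symbols have an adjusted p under 0.05, vertical spread within a list only separates the points, and members and genes at 0.9 or more from 0 are named. The members of the serine and mitochondrial folate lists lie to the right of 0, while TYMS of the cytosolic arm lies at -1.35 in HPNE and at -1.49 in HPDE.

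Across the 12 libraries of a line, each member was set against the mean standardised level of the other members, as a description, since these libraries share treatments. In HPDE the Pearson correlation was 0.913 to 0.993 for 8 members and 0.675 for ALDH18A1. In HPNE it was 0.947 for ASNS, 0.930 for MTHFD2 and 0.913 for PSAT1, 0.599 for MTHFD1L and 0.556 for PYCR1, and -0.808 for ALDH18A1. The genes outside the set whose levels followed the mean of all members most closely were SLC1A5, a glutamine transporter (0.982), CHD2 (0.977), MARS, the methionyl-tRNA synthetase (0.970), HERPUD1 (0.968) and CHAC1 (0.959) in HPNE. In HPDE they were PRNP, DDX59, ZFAND1, BRAP and CCNB1IP1, all at 0.991 to 0.992.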

How the data were processed

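The authors deposited FPKM values for each gene and library, with gene length, symbol and position, per the file headers; the submitters' processing notes name CASAVA, STAR, HTSeq, DESeq2 and the build hg19, without versions or annotation release. The library kit kept no strand, per the labels' protocols. Multiplied by gene length, 100% of the values of a library were whole multiples, within 0.01, of 1 step, the worth of 1 read there, so reads were recovered. Differences were tested with limma 3.58.1 in R 4.3.3 (lmFit, eBayes with a trend) on log2(FPKM + 1), which understates changes of low genes, and genes needed a mean of 1 FPKM or more. The 12 libraries of a line entered one fit (8 residual degrees of freedom), and all 24 entered another for the lines (16), where members had to be tested in both lines to be counted. Tests were two-sided, Benjamini-Hochberg adjusted over all genes, threshold 0.05, and 16 comparisons were made. On simulated reads with 200 genes changed 2-fold, 75.5% were recovered among 11494 genes in HPNE and 93.5% among 12232 in HPDE. Both were for PANC-1 EV against residual medium, with 4 and 8 unchanged genes called. The reads were drawn gene by gene, without a library that lies apart across many genes as in HPNE. Far fewer genes were changed than passed in the data. These counts therefore do not give the rate of false calls in the data.

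Members and lists were chosen with earlier results of these data known. Named beyond the members were their direct counterparts and listed genes past the threshold in all 4 comparisons of vesicles with residual medium. Listed genes past it with a difference of at least 1 in any of these were also named. GOT2, OAT, EIF2AK3 and EIF2AK4 were named in addition. Nothing in the labels ties replicates to separate cultures beyond the term biological triplicate, so p-values measure the spread between these libraries. No pair of replicates agreed within sampling noise. Same-numbered libraries deviated together in every pair only between the HPNE vesicle groups (correlation 0.292 to 0.566), as a hint from the data; the block changed no member call there. The largest and smallest library totals were 46490312 and 29209142 reads, and intervals of reads would cover counting error only. Alternatives were a pseudocount of 0.1, no filter, size factors, only the libraries compared, a replicate block, limma voom on recovered reads, and each library left out; leaving out 4 HPNE libraries together was added on seeing the data. A few listed genes are not reported here.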

Additional observations from a re-analysis of the deposited data

Results flagged for a closer look

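Each value here is the effect in HPDE minus the effect in HPNE on the log2(FPKM + 1) scale, and each passed limma's test of that difference. For PANC-1 EV against residual medium these were MTHFD1L at 0.65, PYCR1 at 0.66 and ALDH18A1 at 1.0. For PPCL-68 EV against residual medium they were MTHFD2 at -0.69, MTHFD1L at 0.44, PYCR1 at 0.81 and ALDH18A1 at 1.1. For residual medium against untreated cells they were MTHFD1L at -0.35 and ALDH18A1 at -0.49. Line differences of vesicles against untreated cells were not tested.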

How the results depend on the processing

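Of 2058 values recomputed for 150 results on single members, 1896 kept their side of the threshold, 92 lost the call, 65 gained it and 5 reversed; not counted as reversed are 48 values of 23 results whose sign turned while neither value passed. Counts of members that passed moved as follows. Where no count over all genes is given for the same fit, a count of members does not set the members apart. For HPNE PANC-1 EV against residual medium (8) the count was 5 without a filter and 3 with only the libraries compared. For HPNE PANC-1 EV against untreated (4) it was 7 with only the libraries compared, for HPNE PPCL-68 EV against untreated (7) 4 without a filter, and for HPDE residual medium against untreated (2) 1 without a filter. With the replicate number as a block, 5 members passed for HPNE residual medium against untreated (3). Without the 4 HPNE libraries that lay apart, 9 passed for HPNE PANC-1 EV against untreated, 9 for residual medium against untreated, 6 between the HPNE vesicle sources, and 7 for each of the 3 line differences. Over all genes, 7192, 8221 and 4186 of 11463 passed in those HPNE comparisons, in the same order. In the line differences 5798 (PANC-1 EV), 5685 (PPCL-68 EV) and 7678 (residual medium) of 12405 passed. Leaving out single libraries gave 4 to 8 members for HPNE PANC-1 EV against residual medium, 7 to 8 for PPCL-68 EV, 2 to 5 and 4 to 7 against untreated, 2 to 6 for residual medium against untreated and 0 between vesicle sources. In HPDE it gave 8 for each vesicle comparison with a control, 1 to 2 for residual medium against untreated and 3 to 4 between sources; line differences gave 2 to 5 (PANC-1 EV), 3 to 6 (PPCL-68 EV) and 2 to 5 (residual medium), and untreated HPDE against HPNE 6 to 8. Reversed were ASNS in the PPCL-68 EV line difference (0.08; from -0.45 without replicate 3 of HPNE residual medium to 0.42 without replicate 1, and -0.50 without the 4 libraries), PHGDH in the PANC-1 EV line difference (0.11; -0.30 to 0.38 and -0.32, likewise) and SHMT2 between untreated lines with size factors (-0.33); the cause was not tested. Over all genes, 2784 passed for HPNE PANC-1 EV against residual medium and 1417 with only the libraries compared; between HPNE sources 629 passed, 335 without a filter and 319 with only the libraries compared; for HPDE residual medium against untreated 2443 passed, 1527 without a filter. Without the 4 libraries the other counts over all genes were 6773 and 7531 of 11463 for HPNE PANC-1 and PPCL-68 EV against residual medium. For HPNE PPCL-68 EV against untreated the count was 7976. Size factors moved the median over all genes by 0.11 for HPNE residual medium against untreated. ALDH1L2 was too low for a test in HPDE, with 11 to 43 reads per library.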
